A study of Homo sapiens with 6 samples.

Results

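The 4 microRNAs (miRNAs) hsa-miR-103, hsa-miR-107, hsa-miR-221 and hsa-miR-222 form a pair of paralog pairs, miR-103 with miR-107 and miR-221 with miR-222. They were taken by name from a card of 377 human miRNA assays, and each of the 4 was found once. The cells were HEK-293FT, a fast-growing human embryonic kidney line, in which 3 samples had received small interfering RNA (siRNA) against TruB1 (genotype TruB1 KD) and 3 were controls whose treatment the labels do not describe further. All 6 samples came from this same line, and the labels give siRNA transfection with a lipid reagent as the treatment, with no time point. Titles carry a series number from 1 to 3 in each group, used here as the replicate number. What it stands for is not stated, nor whether samples came from separate cultures, so that p-values measure only the spread between these samples, which may be technical.

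An miRNA is cut from a hairpin in a longer transcript, first by DROSHA in the nucleus and then by DICER1 in the cytoplasm, and it finds its messenger RNA targets mainly through its seed, bases 2 to 8. miR-103 and miR-107 lie in introns of the pantothenate kinase genes and are known for repressing DICER1 itself and for effects on insulin sensitivity. miR-221 and miR-222 are made from a shared transcript, are abundant in many dividing cells and are known for repressing the cell cycle inhibitor CDKN1B and the receptor KIT. TruB1 is a pseudouridine synthase of transfer RNA that is also known to bind let-7 precursors, and the study is known to ask how it affects let-7 maturation.

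The mature sequences show what a paralog pair shares and where an assay has to tell its members apart. They are the target sequences of the deposited assay list, with the seed in capitals, and all 4 were identical to the RefSeq mature sequences (GRCh38.p14).
miR-103: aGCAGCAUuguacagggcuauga
miR-107: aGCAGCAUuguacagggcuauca
miR-221: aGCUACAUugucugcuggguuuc
miR-222: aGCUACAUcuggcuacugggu
Both members of the first pair have 23 bases and differ by 1 substitution, G22C, counted from 1 at the 5′ end of miR-103. The second pair has the same first 8 bases and then diverges, with 18 identical bases in an alignment of 24 columns (75%). Targets recognised through the seed are therefore common to both members within each pair.

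The precursors differ more than the mature forms, and they are shown because each mature miRNA depends on its own hairpin being processed. The mature arm is in capitals in the RefSeq hairpins (GRCh38.p14).
MIR103A1: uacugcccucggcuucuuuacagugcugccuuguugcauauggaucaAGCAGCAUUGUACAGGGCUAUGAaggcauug
MIR103A2: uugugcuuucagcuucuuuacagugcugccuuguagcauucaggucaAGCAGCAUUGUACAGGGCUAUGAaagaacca
MIR107: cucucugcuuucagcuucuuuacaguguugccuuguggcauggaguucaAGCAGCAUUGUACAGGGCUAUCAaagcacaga
MIR221: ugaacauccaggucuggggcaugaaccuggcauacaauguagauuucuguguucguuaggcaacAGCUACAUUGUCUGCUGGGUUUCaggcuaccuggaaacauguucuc
MIR222: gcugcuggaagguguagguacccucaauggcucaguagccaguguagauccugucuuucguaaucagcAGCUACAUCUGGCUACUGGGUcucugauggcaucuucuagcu
MIR103A1 lies at chr5:168560896-168560973 on the minus strand within PANK3, and MIR103A2 at chr20:3917494-3917571 on the plus strand within PANK2. Both give the same mature miR-103, so the assay reads their sum. MIR107 lies at chr10:89592747-89592827 on the minus strand within PANK1. Over an alignment of the whole hairpin, MIR107 was identical to MIR103A2 at 85.2% of columns and to MIR103A1 at 79.0%. MIR221 (chrX:45746157-45746266) and MIR222 (chrX:45747015-45747124) lie on the minus strand, 748 bases apart within the noncoding gene MIR222HG, and were identical at 60.7% of columns.

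The measurement was quantitative PCR on TaqMan array cards after reverse transcription of 1000 ng of total RNA, with 1 well per miRNA and 40 cycles. The raw value is the threshold cycle (Ct), which is lower for a more abundant miRNA, by 1 cycle for each 2-fold step if amplification is complete. Between 188 and 226 miRNA assays per sample had a Ct under 35. The 4 wells per card for U6, a small nuclear RNA used as the reference, gave 2 to 4 determined values and a mean Ct of 12.2 to 15.4, and wells of 1 card spanned up to 2.77 cycles. That widest span was in control sample 1, and control sample 3 had only 2 determined U6 wells, spanning 1.82 cycles. Of the fixed markers of epithelium and kidney tubule, 7 of 7 were under Ct 35 in all 6 samples. Of 12 assays for markers of blood, muscle, liver, endothelium, fibroblasts and neurons, 3 were under Ct 35 in all 6 samples (miR-126, miR-133a and miR-9), and 2 in none. The neuron marker miR-124, named miR-124a on the card, was not matched and is not among these 12. It was under Ct 35 in at least 3 samples. By mean Ct, miR-126 (22.3 in control, 23.5 in knockdown) came earlier than each epithelial or kidney marker, the earliest being miR-192 (24.5 and 25.9). miR-9 was at 24.6 in both groups. In 5 of 6 samples miR-142-3p, miR-223, miR-145 and miR-199a-3p were also under Ct 35. The counts under Ct 35 therefore do not rank the lists by level. For every list with a determined value, without miR-124a, the summed level relative to U6 overlapped between control and knockdown. Their part in the results was not tested. TruB1 messenger RNA was not analysed here, and how far it was depleted in each sample is not known.

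All 4 miRNAs were measured in every sample, and their order did not change. miR-222 was highest, followed by miR-221, miR-103 and miR-107, in 6 of 6 samples. By raw Ct, miR-222 ranked 7 to 12 among the assays with a Ct in the same sample, miR-221 22 to 50, miR-103 43 to 54 and miR-107 101 or later. Neighbours in this order were separated by 2.54 ± 1.05 cycles (SD, n = 6) for miR-222 over miR-221, 1.57 ± 0.640 cycles for miR-221 over miR-103, and 3.94 ± 0.712 cycles for miR-103 over miR-107. The smallest gap was 0.343 cycles, between miR-221 and miR-103 in control sample 3, where the neighbours were nearly level. Levels of different assays also carry their unknown amplification efficiencies, so an order between assays is firmer than the size of a gap.

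**Figure D1:**
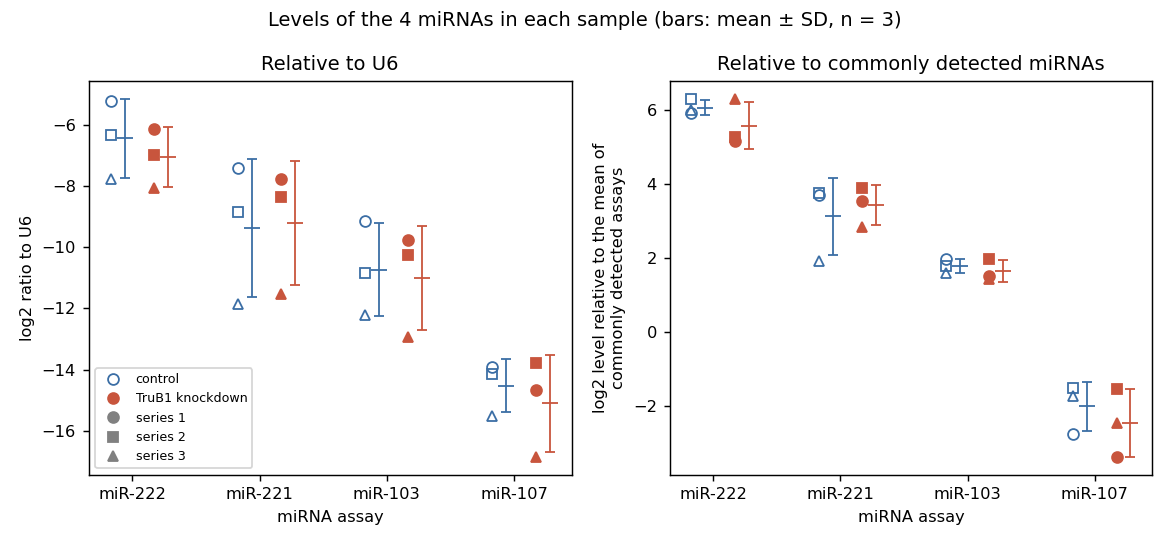
Levels of the 4 miRNAs in each sample, as log2 ratio to U6 (left) and as log2 level relative to the mean of the 157 assays under Ct 35 in all samples (right); open symbols are control, filled symbols knockdown, symbol shapes are series numbers, and bars are mean ± SD (n = 3). Control and knockdown overlap for each miRNA on both scales, and the spread over the 6 samples of miR-103 shrinks from an SD of 1.45 to 0.233 between the scales.

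hsa-miR-103, the member of its pair with the lower Ct, had raw Ct values of 23.9, 24.8 and 24.3 in the controls of series 1, 2 and 3 and of 24.7, 25.7 and 26.2 in the knockdowns, in the same order, which is kept from here on. Its deposited ratio to U6 was 0.00175, 0.000545 and 0.000213 in control and 0.00114, 0.000809 and 0.000127 in knockdown. Series 1 was high and series 3 low in both groups, as was the mean of the card's commonly detected assays relative to U6 (given below), and the groups overlapped. On the log2 scale the means were -10.73 ± 1.52 (SD, n = 3) in control and -11.00 ± 1.70 in knockdown, a difference of -0.26 (SE 1.47; 95% interval -3.15 to 2.63; limma, adjusted p = 0.999 over 195 assays). This difference was smaller than the spread of either group, and its sign turned without control sample 1 (0.52) or knockdown sample 3 (0.71). None of the 4 miRNAs passed an adjusted p of 0.05 in this limma fit, nor did any other assay (0% of 195; 0% also at an unadjusted p under 0.05), so the members' count is that of the background.

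hsa-miR-107, which differs from miR-103 by the single base above, was detected about 4 cycles later. Its raw Ct was 28.6, 28.1 and 27.7 in control and 29.5, 29.2 and 30.1 in knockdown. All 3 knockdown values were later than all 3 control values. Such a separation by raw Ct was seen for 14.9% of the 161 assays determined in all samples, and it takes no account of the shift of whole cards. Relative to U6 the values were 6.54e-05, 5.57e-05 and 2.13e-05 in control and 3.83e-05, 7.07e-05 and 8.50e-06 in knockdown, and the groups overlapped. The log2 difference was -0.58 (SE 1.46; 95% interval -3.47 to 2.30; limma, adjusted p = 0.999), and 0.29 without knockdown sample 3.

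hsa-miR-221 had raw Ct values of 22.2, 22.8 and 24.0 in control and 22.6, 23.8 and 24.8 in knockdown. Its ratio to U6 was 0.00582, 0.00216 and 0.000270 in control and 0.00460, 0.00306 and 0.000337 in knockdown. Both samples of series 3 were far below the other 4, and the groups overlapped nearly completely. It was the only member with a higher mean in knockdown, by 0.16 on the log2 scale (SE 1.48; 95% interval -2.75 to 3.07; limma, adjusted p = 0.999). That sign turned with raw Ct (-0.74), where the median of all tested assays was -1.0, and without control sample 3 (-1.08), knockdown sample 1 (-0.56) or knockdown sample 2 (-0.27).

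hsa-miR-222, the most abundant of the 4, had raw Ct values of 19.96, 20.3 and 19.94 in control and 21.0, 22.4 and 21.3 in knockdown. Like those of miR-107, its raw values were later in knockdown without overlap between groups, as for 14.9% of the 161 assays. Its ratio to U6 was 0.0267, 0.0124 and 0.00453 in control and 0.0142, 0.00790 and 0.00370 in knockdown. Relative to U6 the groups overlapped, and the log2 difference was -0.62 (SE 1.46; 95% interval -3.50 to 2.26; limma, adjusted p = 0.999). It was -0.0064 without control sample 1, -0.11 without knockdown sample 3, -1.08 without knockdown sample 1 and -1.29 without control sample 3, and -0.14 after quantile normalization.

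Much of this spread relative to U6 went along with the series number. Within series 1, 2 and 3 the ratio to U6 of miR-222 in knockdown was 0.532, 0.637 and 0.817 times that in control, lower in 3 of 3 series, which was also true of 19.3% of the 161 assays. For miR-221 the factors were 0.790, 1.42 and 1.25. For miR-103 they were 0.653, 1.48 and 0.598, and for miR-107 0.586, 1.27 and 0.398. Relative to U6, the members of the first pair lay on the same side of 1 in each series, and those of the second pair on opposite sides in series 2 and 3. When the series number was added as a replicate block, the log2 differences were those given above, since every member was determined in all samples, and the SE dropped to between 0.421 and 0.486. No member passed (smallest adjusted p = 0.971 in limma), and 0% of 189 assays did, with 5.29% at an unadjusted p under 0.05.

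U6 and the other miRNAs did not shift alike, which bears on each of these factors. In knockdown the mean U6 Ct was later by 0.142, 1.48 and 1.10 cycles in series 1, 2 and 3, and the mean of the commonly detected assays, those under Ct 35 in every sample, by 0.314, 1.12 and 1.69 cycles. The commonly detected mean came 11.1, 12.6 and 13.8 cycles after U6 in control and 11.3, 12.3 and 14.4 in knockdown. Its level relative to U6 therefore fell from series 1 to series 3 in both groups. Each of the 4 members was later in knockdown in 3 of 3 series by raw Ct, as were 61.5% of the 161 assays. Relative to the commonly detected mean, the log2 change of miR-107 was -0.60, -0.014 and -0.73 in series 1, 2 and 3, that of miR-103 -0.44, 0.21 and -0.14, that of miR-221 -0.17, 0.15 and 0.92, and that of miR-222 -0.74, -1.01 and 0.30. Under this reference miR-107 was lower in 3 of 3 series, by almost nothing in series 2, as were 11.8% of the 161 assays. The pattern of signs within the pairs was also another one: miR-103 and miR-107 lay on opposite sides of 0 in series 2, and miR-221 and miR-222 on the same side in series 3. In limma without the block, the SE of the members was 0.452 to 0.648 under this reference, beside 1.46 to 1.48 relative to U6. With the block and this reference it was 0.421 to 0.450, so the block lowered the SE less than it did relative to U6. How far the reference contributes to the differences against U6 was not tested.

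**Figure D2:**
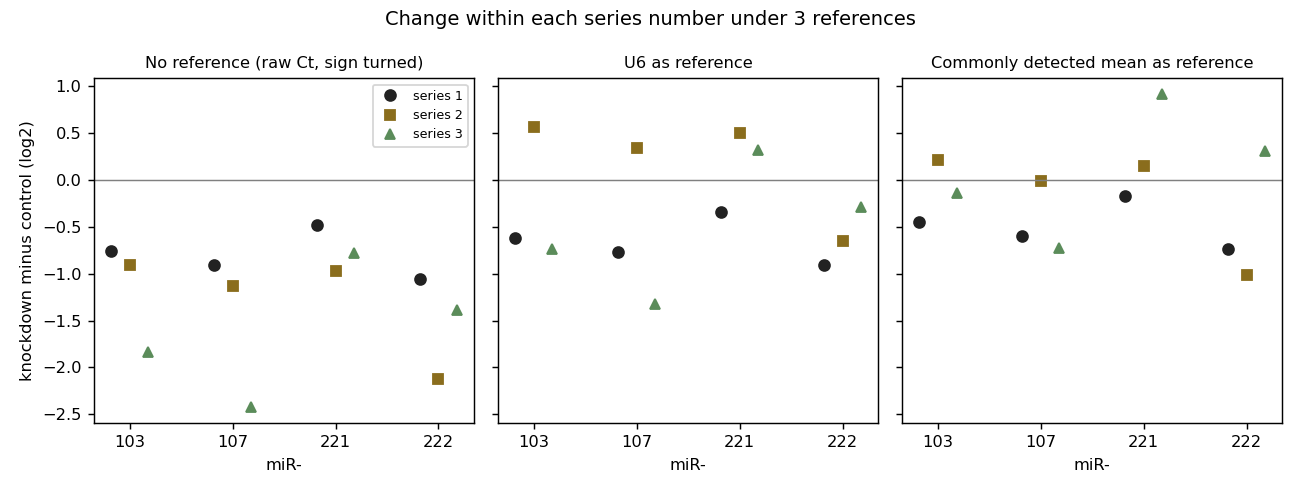
Knockdown minus control on the log2 scale within each series number, for the 4 miRNAs, with no reference (raw Ct, sign turned), with U6, and with the mean of the commonly detected assays; each point is 1 series. All 12 points are below 0 without a reference, whereas with either reference points lie on both sides of 0.

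A comparison within a pair needs no reference, because anything that shifts a whole card cancels between both members. The log2 difference miR-103 minus miR-107 was 4.74, 3.29 and 3.32 in control and 4.89, 3.52 and 3.91 in knockdown. Taken at full efficiency of both assays and without cross-reading between them, neither of which was tested, miR-103 made up 92.7% ± 3.22 (SD, n = 3) of the summed pair in control and 94.2% ± 2.42 in knockdown. The groups overlapped, and both samples of series 1 lay above the other 4. The means were 3.78 ± 0.828 (SD, n = 3) and 4.11 ± 0.710, a difference of 0.32, below the SD of each group (two-sided exact permutation test, p = 0.5, 0.6 after Benjamini-Hochberg adjustment over 3 such comparisons; smallest possible p = 0.1). Without knockdown sample 1 the difference was -0.073.

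For the second pair the difference miR-221 minus miR-222 was -2.20, -2.52 and -4.07 in control and -1.63, -1.37 and -3.46 in knockdown. miR-222 therefore exceeded miR-221 by 4.59, 5.75 and 16.8 times in control and by 3.09, 2.58 and 10.98 times in knockdown. It made up 87.2% ± 6.37 (SD, n = 3) of the pair in control and 79.8% ± 10.4 in knockdown. The means were -2.93 ± 0.998 and -2.15 ± 1.14 (SD, n = 3), a difference of 0.78, again below each SD (two-sided exact permutation test, p = 0.5, adjusted 0.6). The difference was 0.21 without control sample 3, 0.52 without knockdown sample 1, 0.39 without knockdown sample 2 and 1.43 without knockdown sample 3. Series 3 lay below the others in both groups, so the groups overlapped. Groups without overlap were found for 3.8% of all pairs of commonly detected assays.

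**Figure D3:**
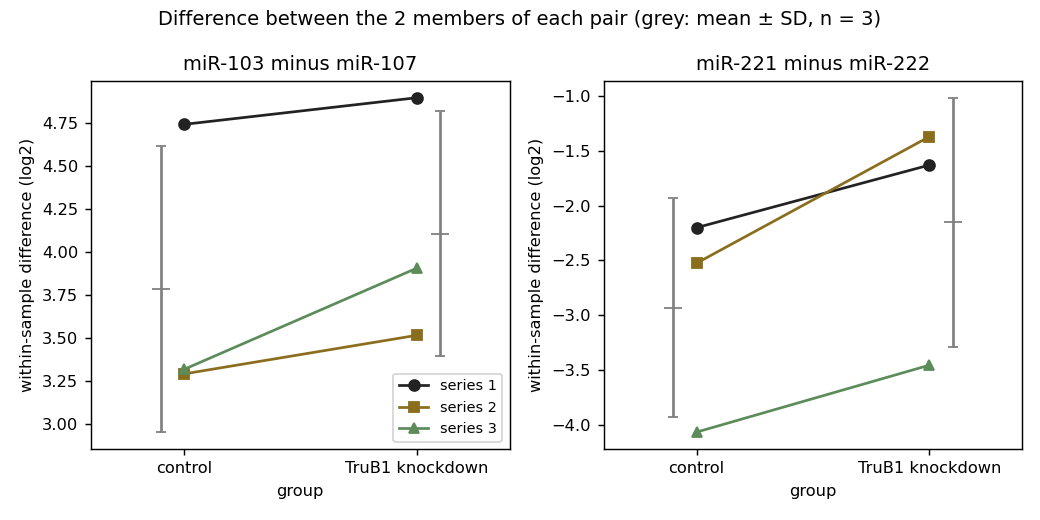
Log2 difference between both members of each pair within a sample, for control and knockdown, with lines joining samples of the same series number and grey bars showing mean ± SD (n = 3). All 6 lines slope upward from control to knockdown, and in both panels 1 series lies apart from the other series in both groups.

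Within the series numbers both differences were higher in knockdown in 3 of 3 series. For miR-103 minus miR-107 the change was 0.15, 0.22 and 0.59 (mean 0.32 ± 0.232, SD, n = 3), and for miR-221 minus miR-222 it was 0.57, 1.16 and 0.61 (mean 0.78 ± 0.326). An exact two-sided sign-flip test gave p = 0.25 for each, the smallest value that 3 series allow. A change to one side in all 3 series was found for 23.1% of the 12246 pairs that can be formed from the 157 commonly detected assays, so it is no rare pattern on these cards. In both pairs the mean change was larger than its SD over series, but how often that holds among the 12246 pairs was not counted.

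The pair differences also varied between series numbers. The mean of both samples of a series for miR-103 minus miR-107 was 4.82 in series 1, 3.40 in series 2 and 3.61 in series 3, a range of 1.41 beside the knockdown difference of 0.32. For miR-221 minus miR-222 it was -1.91, -1.95 and -3.76, a range of 1.85 beside 0.78. A range over series means tends to exceed a difference between group means even without a series effect, so these sizes are not like for like. Ranks on the card give the position of each member, although a rank near the top has little room to move. miR-107 was at rank 124 in the control of series 1 and still later in its knockdown, and between 101 and 118 in the other series, while miR-103 stayed between 43 and 54. miR-221 was at rank 50 and 39 in series 3 and between 22 and 26 in the others, while miR-222 stayed between 7 and 12. Relative to the commonly detected mean, the SD over 6 samples was 0.233 for miR-103, 0.759 for miR-107, 0.761 for miR-221 and 0.491 for miR-222, whereas relative to U6 it was 1.45, 1.18, 1.92 and 1.07, so that the order within the first pair depended on the reference.

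Between the pairs, the mean of miR-103 and miR-107 minus that of miR-221 and miR-222 was -5.21, -4.89 and -4.04 in control and -5.27, -4.36 and -5.08 in knockdown on the log2 scale. The group means were -4.71 ± 0.605 and -4.91 ± 0.481 (SD, n = 3), with a difference of -0.20 (exact permutation test, two-sided, p = 0.6, adjusted 0.6). Signs were mixed within series, at -0.068, 0.53 and -1.05, and the sign of the mean turned without control sample 3 (0.14).

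Other pairs on the card were used to set the scale of these differences. Of 9 fixed pairs of near-identical miRNAs, 7 were under Ct 35 in all samples. The SD over 6 samples of the difference ran from 0.372 for miR-30b with miR-30c to 1.18 for miR-148a with miR-148b, with a median of 0.768, and miR-103 with miR-107 (0.712) was within that range. Of 9 pairs from a shared transcript, 8 were used. The remaining pair, miR-191 with miR-425, was not matched by name, since the card names the second assay miR-425-5p. Both of its assays were tested in limma, so its absence here says nothing of detection. The SD of the 8 ran from 0.370 for miR-192 with miR-194 to 2.84 for miR-18a with miR-92a, with a median of 0.642. miR-221 with miR-222 (1.05) was above 7 of the 8, and above the median of 0.936 over all 12246 pairs. The one higher value rests on knockdown sample 1, where the difference for miR-18a with miR-92a changed by 6.18 within the series. Of these 15 pairs, 3 moved to one side in all series (let-7a with let-7c, miR-93 with miR-106b and miR-132 with miR-212). No test was made of these SDs.

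**Figure D4:**
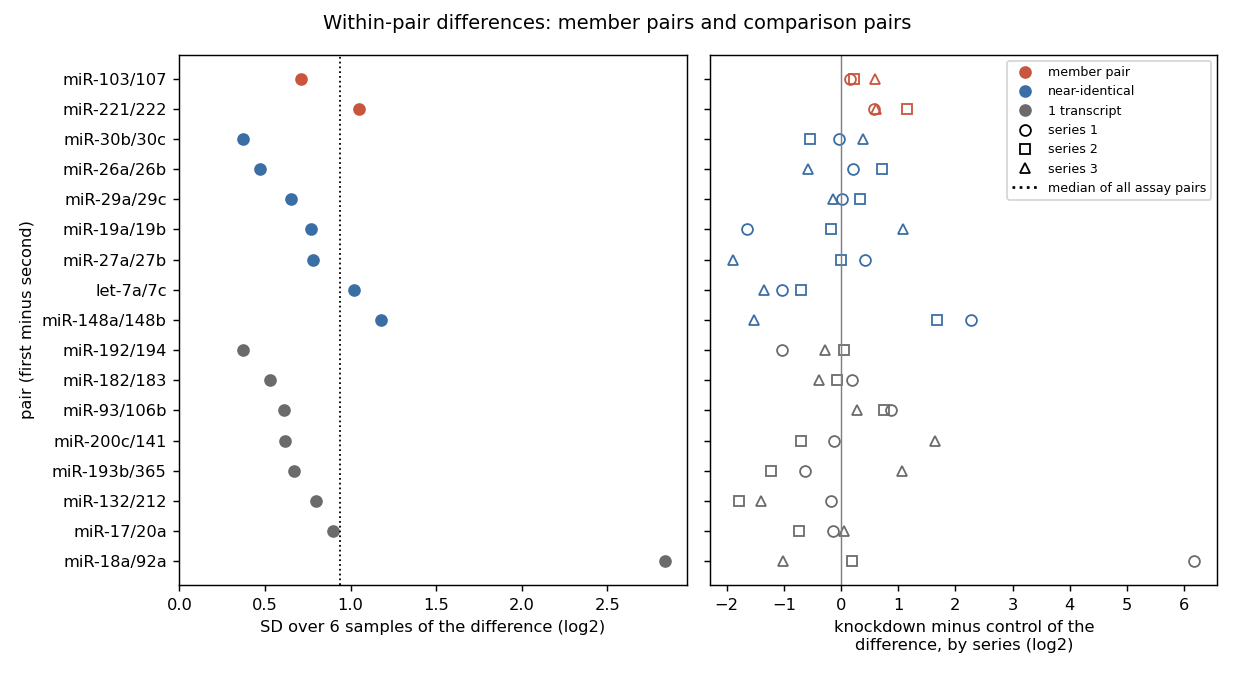
Left, SD over 6 samples of the log2 difference between both members of a pair, with the median over all pairs of commonly detected assays as a dotted line; right, knockdown minus control of that difference in each series. The pairs studied here are in red, near-identical pairs in blue and pairs from a shared transcript in grey, and miR-221 with miR-222 lies to the right of the dotted line at 1.05.

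Likeness of pattern was described by Pearson's r over the 6 samples, on log2 levels relative to the commonly detected mean, against 156 other assays. These points share their cards and that mean, and the values are a description. For miR-103 the highest were miR-19a (0.829), miR-20a (0.827) and miR-423-5p (0.810), and its partner miR-107 was at place 45 with 0.348. For miR-107 they were miR-182 (0.876), miR-502-3p (0.787) and miR-92a (0.769), with miR-103 at place 24. On this scale miR-107 was lowest in knockdown sample 1 (-3.37), the sample in which miR-18a with miR-92a stood apart. How far the value for miR-92a rests on that sample was not tested. For miR-221 they were miR-26b (0.941), miR-20a (0.941) and miR-487a (0.931), and miR-222 was at place 96 with a value of -0.373. For miR-222 they were miR-192 (0.966), miR-193b (0.871) and miR-29c (0.866), with miR-221 at place 114. In neither pair was the partner among the closest assays on this scale. The places of the partners shifted with the measure.

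The miR-15/16 group is the nearest relative of the first pair by seed. These miRNAs, known as brakes on the cell cycle, carry the first 7 bases of miR-103 shifted by 1 base, as in miR-16, with the seed in capitals.
miR-16: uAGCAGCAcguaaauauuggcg
Of 7 miRNAs listed, 6 were on the card, and 5 of these hold AGCAGCA at bases 2 to 8. The exception, miR-503, has the seed AGCAGCG. All 6 were tested in limma. None passed an adjusted p of 0.05, and 0 had an unadjusted p under 0.05, without the replicate block or with it. The log2 differences relative to U6 ran from -0.61 for miR-424 to 0.11 for miR-503, with a median of -0.057, 5 lower and 1 higher, beside a median of -0.096 over all 195 assays, 116 of them lower, and of -0.42 over the 4 members. Signs depended on the reference: relative to the commonly detected mean 2 of the 6 were lower, miR-16 (-0.22) and miR-424 (-0.47), beside 90 of the 195 assays. miR-16 itself was at a mean Ct of 19.4 ± 1.10 (SD, n = 3) in control and 20.7 ± 0.866 in knockdown.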

How the data were processed

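Raw threshold cycles and the ratios to U6 that the authors deposited were used for the 6 samples, grouped by title. TaqMan cards were run after Megaplex Pool A reverse transcription, per the labels' protocols; threshold and baseline settings are not given in the sources used here. Each deposited ratio was recovered from raw Ct, as 2 raised to the U6 Ct averaged over determined wells less the assay's own Ct, within 6.77e-06 on the log2 scale. There are no counts; depth is given as detected assays (Ct under 35). The deposited fold changes were not used, being recomputed within series numbers.

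The log2 of the ratio was compared in limma 3.58.1 (R 4.3.3; lmFit and eBayes; two-sided) by group alone, with Benjamini-Hochberg adjustment over 195 assays with a Ct under 35 in at least 3 samples and a value in at least 2 samples of each group. Undetermined wells were missing. Differences within pairs were compared by exact permutation and sign-flip tests, which were checked on values with known answers. The limma fit was checked on simulated data, with recovery of changes required only at a spread far below the real one. The 4 members and all lists were chosen with earlier results of these data known. Named beside the members are the miR-15/16 group, the comparison pairs and, for each member, the 3 assays of highest r. Alternatives were the reference, quantile normalization, undetermined wells, the detection filter, the block and left-out samples. Deviations from group means over 161 assays correlated at 0.416, 0.527 and 0.625 between samples of the same series number, which was therefore taken, from the data, to pair the samples. Between series 1 and 2 they correlated at 0.249 and 0.129, and between series 3 and the others at -0.342 to -0.536. Series 1 and 2 are thus set apart less clearly. Deviations also cancel out within a group, which lowers the values between different series numbers. Mature and hairpin sequences came from RefSeq tables for GRCh38.p14.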

Additional observations from a re-analysis of the deposited data

How the results depend on the processing

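In limma, 0 assays passed an adjusted p of 0.05 under each of the 17 alternatives, those leaving out a sample included, while at an unadjusted p under 0.05 it was 0 in the setting reported and 10 with the replicate block. Pairing within series numbers changed no call for a member, and the tests of the pair differences cannot pass 0.05 with or without pairing. With the block the log2 differences stayed at -0.26, -0.58, 0.16 and -0.62 for miR-103, miR-107, miR-221 and miR-222, and the pair changes at 0.32, 0.78 and -0.20. Of 44 member values under alternatives that kept whole groups or series, 1 was reversed, miR-221 with raw Ct (-0.74), where all assays shifted by a median of -1.0. Many of the 44 could not differ from the value reported. Every member was determined in all samples, at a Ct of 30.1 or earlier, below each Ct limit used. The detection filters, the fill of undetermined wells and the block therefore left its estimate unchanged, so this count says little of stability. With a sample left out, 6 of 24 were reversed. The ranges were -0.99 to 0.71 for miR-103, -1.24 to 0.29 for miR-107, -1.08 to 1.32 for miR-221 and -1.29 to -0.0064 for miR-222. miR-103 was reversed without control sample 1 (0.52) or knockdown sample 3 (0.71), miR-107 without knockdown sample 3, and miR-221 without control sample 3 (-1.08), knockdown sample 1 (-0.56) or knockdown sample 2 (-0.27). Each of these fits broke a pair. The pair change ran from -0.073 to 0.80 for miR-103 minus miR-107, reversed without knockdown sample 1, and from 0.21 to 1.43 for miR-221 minus miR-222. For the difference between the pairs it ran from -0.47 to 0.14, reversed without control sample 3, and it was 0.23 with both samples of series 3 left out, an alternative chosen after seeing the data. The place of the partner, 45 for miR-103, was 116 relative to U6 and 75 by the SD of the difference. For miR-107 (24) it was 25 and 13, for miR-221 (96) 74 and 87, and for miR-222 (114) 50 and 112. The cause was not tested. Each miRNA had 1 well per sample, so the error of a well cannot be separated from that between samples.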
